A study of Caenorhabditis elegans with 12 samples.

Results

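The comparison asked which genes differed between worms carrying a mutated atfs-1 gene and wild-type worms when no mitochondrial stress was imposed. It rested on the control RNAi arrays alone, 6 of the 12 arrays of the series: 3 of atfs-1(tm4525) and 3 of wild type, all genes being members. Of 17118 genes with a probe set of a single gene name, 10385 were tested, each through its brightest such probe set after the dimmest 40% of probe sets had been left out. Both groups were Caenorhabditis elegans of the N2 background, bleach-synchronised, grown in liquid culture on control RNAi bacteria and collected whole at the last larval stage, L4. Another 3 arrays of each genotype labelled spg-7 RNAi, a treatment directed at a protease subunit of the inner mitochondrial membrane, served as a second, separate set of arrays for the same genotype difference. Each group had 3 biological replicates by its labels, so p-values measure the spread between these cultures or extracts. The mutant is a single allele, tm4525, a deletion within the gene, and the animals carry it in every tissue. In RNA of whole worms, fewer cells of a type and less RNA per cell cannot be told apart.

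ATFS-1 is a bZIP transcription factor with a mitochondrial targeting sequence. In healthy cells it is imported into mitochondria and degraded there; when import falters, part of it reaches the nucleus and switches on the mitochondrial unfolded protein response, whose best known targets are the matrix chaperones hsp-6 and hsp-60. The protein therefore has a well studied role under stress, while the unstressed state compared here is the baseline from which that response starts.

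No gene passed the test. With limma, 0 of 10385 genes were higher in the mutant and 0 lower at an adjusted p under 0.05 (0% in each direction), and the smallest adjusted p was 0.19. At an unadjusted p under 0.05 there were 880 genes higher in the mutant (8.47%) and 233 lower (2.24%), of which 692 and 69 differed by at least 2-fold. Weighting the arrays with limma's default method, which stopped before it converged, called 353 genes higher and 166 lower (3.4% and 1.6%), whereas limma's gene-by-gene weights called 0 and 0. A gene whose 3 mutant arrays all lay above or all below its 3 wild-type arrays is called separated below. By that count 1228 genes were separated with the mutant higher (11.8% of all genes tested) and 601 with the mutant lower (5.79%). The median gene differed by 0.27 on the log2 scale in either direction, against a median standard error of 0.36 and a 95% confidence interval that reached 0.79 (1.73-fold) to either side. Differences smaller than that were mostly not detectable with 3 arrays a group, and every difference given below is a log2 difference of probe-set signal, mutant minus wild type, that did not pass the adjusted test unless stated.

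Wild-type control replicate 1 stood apart. Across genes it correlated with the other wild-type control arrays at Pearson's r of 0.867 and 0.891 and with the mutant arrays at 0.856 to 0.879, whereas the other wild-type arrays reached 0.922 to 0.943 with the mutants and the mutants 0.935 to 0.946 with each other. Transcripts of the maturing germ line and of yolk were low on it. The summed signal of 26 sperm markers was 90233 there, 505074 and 528248 on the other wild-type arrays and 422749 to 684497 in the mutant. For 6 oocyte markers the sums were 3601 on replicate 1, 43879 and 17785 on the other wild-type arrays and 15128 to 29362 in the mutant, and for the 5 measured vitellogenins they were 878, against 70944 to 89919 and 53202 to 68880. The 6 germ-line markers such as glp-1 and gld-1 did not follow, with 11412 on replicate 1 inside the range of 10672 to 17121 of all 6 arrays. Without this array the count at an unadjusted p under 0.05 was 413 higher and 71 lower (3.98% and 0.684%), still with 0 genes called by limma. By separation it was 16.2% higher and 8.37% lower with 1 wild-type array fewer to overlap with, so values without it are given beside the results that it moved most. Its part in the other differences was not tested.

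The labels could be checked only in part. The atfs-1 signal was 454, 370.3 and 409 on the 3 wild-type arrays and 523, 386 and 405 on the 3 mutant arrays. The ranges overlapped, the difference was 0.08 (95% interval -0.47 to 0.63, limma adjusted p = 0.98), and its sign turned under quantile normalisation and median centring, with -0.02 in both. The probe set is marked s, a kind that can bind more than 1 transcript, and its position relative to the tm4525 deletion was not checked, so the value neither shows nor lacks the lesion. On the arrays labelled spg-7 RNAi the spg-7 probe set itself was not lower: it read 13442, 22348 and 7278 in wild type and 26208, 17698 and 9968 in the mutant, against means of 753 and 383 on control RNAi. In wild type that is 4.19 higher on the log2 scale (limma adjusted p = 4.1e-04), the opposite of a knockdown. The cause was not tested, and those arrays are called spg-7 RNAi here only by their label. Among 16 measured regulators of the response, such as dve-1 (a homeobox factor that acts with ATFS-1) and zip-3 (a bZIP repressor of it), 0 reached an unadjusted p under 0.05 and the median difference was -0.07, against -0.02 over all genes.

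Mitochondrial chaperones and proteases, the direct readout of the response, had a median difference near 0, and the best known pair of genes went different ways. Of 14 measured members 0 were separated with the mutant higher and 3 with it lower (hsp-60, spg-7 and the hsp-10 homologue Y22D7AL.10), or 21.4% against 5.79% of all genes, and the median difference was 0.03. The mitochondrial Hsp70 gene hsp-6 read 4626, 2521 and 5082 in wild type and 4404, 4900.2 and 4786 in the mutant. The mutant arrays lay within the wild-type range, the difference was 0.27 (-0.37 to 0.90, adjusted p = 0.86) and it turned to -0.05 without wild-type control replicate 2; a second probe set of the gene differed by 0.02.

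The chaperonin gene hsp-60 read 5317, 4592 and 5196 in wild type and 3509, 3134 and 3112 in the mutant. Every mutant array was lower than every wild-type array, a 1.55-fold lower signal (-0.63, interval -1.20 to -0.06; unadjusted p = 0.034 and adjusted p = 0.45 by limma), and the difference ran from -0.70 to -0.59 when single control arrays were left out. On spg-7 RNAi it was -0.47 with overlapping arrays. A second hsp-60 probe set, also marked s, did not show it: its mean signal was 1031 in wild type and 1056 in the mutant, a difference of 0.05. The inner-membrane protease gene spg-7 read 747, 454 and 1057 in wild type and 385, 450.0 and 313 in the mutant. These arrays did not overlap either (-0.91, limma adjusted p = 0.5), although the highest mutant array and the lowest wild-type array were nearly level.

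**Figure D1:**
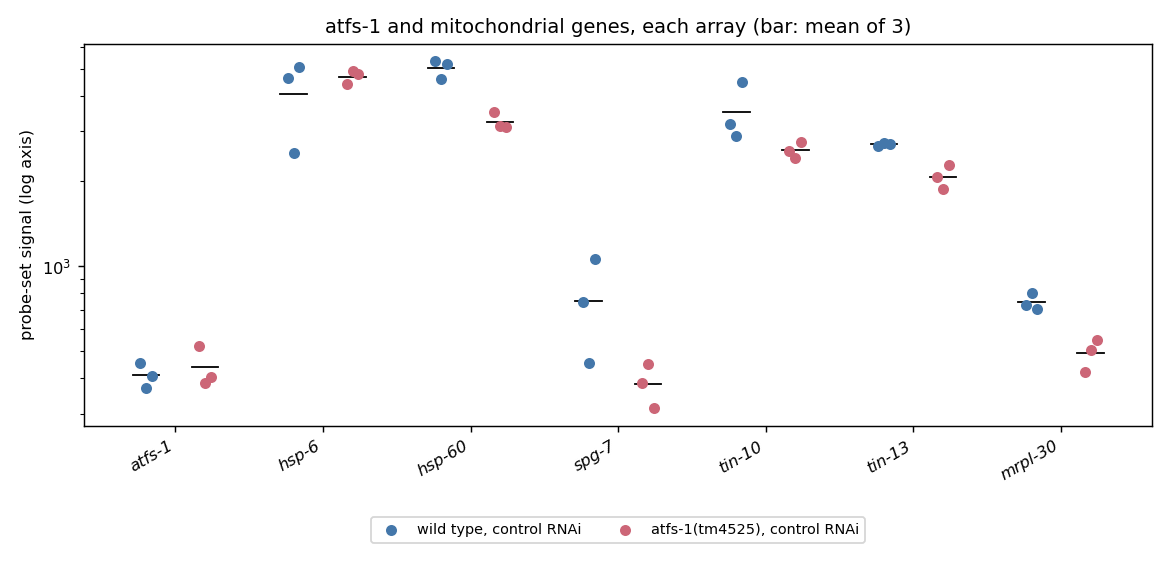
Probe-set signal (log axis) of atfs-1 and 6 nuclear-encoded mitochondrial genes on each control RNAi array, with bars at the mean of 3 arrays. The hsp-60, spg-7, tin-10, tin-13 and mrpl-30 arrays do not overlap between genotypes, while atfs-1 and hsp-6 do, and no gene passed the adjusted test.

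Genes for building mitochondria more often had a lower than a higher signal in the mutant, by small amounts. Of 57 mitochondrial ribosomal protein genes, which make the translation machinery of the organelle, 51 had a lower mean in the mutant, 12 were separated with the mutant lower (21.1%, against 5.79% of all genes) and 0 with it higher, at a median of -0.26. The large-subunit gene mrpl-30 had the largest difference, 729.7, 806 and 702 in wild type against 422, 505 and 549 in the mutant, or -0.61 (unadjusted p = 0.023, adjusted p = 0.43 by limma). On the separate spg-7 RNAi arrays 18 of the 57 were separated with the mutant lower (7.29% of all genes were), the median was -0.30, and 6 were separated with the mutant lower on both RNAi treatments, as were 0.857% of all genes.

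The respiratory chain and ATP synthase list had 8 of 51 genes separated with the mutant lower (15.7%, against 5.79% of all genes). It had 1 with the mutant higher (1.96%, against 11.8%), and its median was -0.17 (-0.11 without wild-type control replicate 1). That single gene was cyc-2.2, a cytochrome c gene, at 469.5, 1989.6 and 2099 in wild type and 3025, 2749 and 3585 in the mutant. The low first wild-type array carries much of its difference of 1.31, which was 0.60 without that array. Of the import genes, the small intermembrane-space chaperones tin-10 (-0.42) and tin-13 (-0.38) were separated with the mutant lower, 2 of 14 members (14.3%). Without wild-type control replicate 3 tin-10 was at -0.23. For tin-13 the wild-type arrays read 2656, 2734 and 2712 and the mutant arrays 2065, 1878 and 2289, the narrowest wild-type spread among the genes drawn with it. Of 29 genes of the tricarboxylic acid and glyoxylate cycles 3 were separated with the mutant lower (10.3%), among them sucl-2, a succinyl-CoA ligase subunit, at -0.47. On spg-7 RNAi 0 of these 29 were separated lower. There, 6 of the 51 respiratory genes and 5 of the 14 import genes were, as were 7.29% of all genes.

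These mitochondrial values depended on the scaling of the arrays. Scaling to the spiked hybridisation controls shifted the median of all genes by 0.45, from -0.02 to 0.43, because those controls averaged 0.45 lower on the mutant arrays (exact two-sided permutation test, p = 0.2, 0.24 after adjustment over 6 control measures, where 0.1 is the smallest p possible). With that scaling the mitochondrial ribosomal median was 0.20 and the respiratory median 0.28, both below the 0.43 of all genes, and tin-10 and tin-13 turned to 0.03 and 0.07. Under quantile normalisation the same medians were -0.27 and -0.09. Of 5 ratios of 3' to 5' control probe sets, a measure of RNA integrity, the ubiquitin ratio was 3.33 ± 0.18 (log2, SD, n = 3) in the mutant and 3.75 ± 0.11 in wild type, without overlap (exact permutation p = 0.1, adjusted 0.24). The other 4 had exact p-values of 0.2 to 0.7, and the part of RNA quality in the differences was not tested.

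Other housekeeping machinery had lower signals too. All 74 cytosolic ribosomal protein genes had a lower mean in the mutant, at a median of -0.47, with 8 separated lower (10.8%, against 5.79% of all genes). At an unadjusted p under 0.05 by limma 18 were lower, as were 2.24% of all genes. That direction was small under quantile normalisation (-0.12) and reached -0.02 under hybridisation-control scaling, where it stayed below the 0.43 of all genes. On spg-7 RNAi the median was -0.02 and 0 of the 74 were separated lower. Of 33 proteasome subunits 9 were separated with the mutant lower (27.3%, against 5.79% of all genes), among them pbs-6 and rpn-10. A second rpn-10 probe set differed by -0.07, against -0.40 for the one used. The exception was rpn-6.2, separated higher on both RNAi treatments. On control RNAi it read 479, 1061 and 998 in wild type and 1175, 1073 and 1173 in the mutant. Its difference there of 0.51 was 0.15 without wild-type control replicate 1. For this list the shift was absent on spg-7 RNAi, where the median was 0.13 and 0 were separated lower.

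Of 31 aminoacyl-tRNA synthetases, the enzymes that charge transfer RNAs, 9 were separated with the mutant lower (29.0%, against 5.79% of all genes) and 0 higher. Their median was -0.12 (-0.06 without wild-type control replicate 1). The valyl-tRNA synthetase gene vars-1 read 884, 899.9 and 616 in wild type and 499, 483 and 464 in the mutant. Its difference of -0.71 (adjusted p = 0.43 by limma) was the same size on spg-7 RNAi, -0.71, where the arrays again did not overlap; it was the only member separated lower on both treatments.

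One-carbon and methionine metabolism, which supplies methyl groups, had members on both sides. Of 21 genes 6 were separated with the mutant lower (28.6%, against 5.79% of all genes) and 1 with it higher (4.76%, against 11.8%). The S-adenosylmethionine synthetase gene sams-1 read 18317, 11224 and 11779 in wild type and 6528, 4062 and 9713 in the mutant. Every mutant array was lower, a 2.11-fold difference (-1.08, interval -2.08 to -0.07, unadjusted p = 0.037 and adjusted p = 0.45 by limma), and 2 further probe sets of the gene differed by -1.12 and -1.30. The related gene sams-5, whose probe set can also bind other transcripts, read 260.0, 889 and 520.1 in wild type and 1625, 1514 and 1411 in the mutant, a difference of 1.62 that was 1.16 without wild-type control replicate 1.

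Chosen after their values were seen, the other separated members with the mutant lower included further genes of methionine and phosphatidylcholine synthesis. They were metr-1 (methionine synthase) at -0.56, mtrr-1 (its reductase) at -0.48, mthf-1 (methylenetetrahydrofolate reductase) at -0.69 and pmt-2 (a methyltransferase of phosphatidylcholine synthesis) at -0.70. Without wild-type control replicate 1 metr-1 was at -0.36 and mthf-1 at -0.43. On spg-7 RNAi these arrays overlapped: sams-1 was at 0.12, metr-1 at -0.02, mtrr-1 at 0.12, mthf-1 at -0.14 and pmt-2 at 0.03, and 0 of the 21 genes were separated lower. For sams-5 the difference there was 1.76, again separated.

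C-type lectins, secreted sugar-binding proteins of which many respond to microbes, made up the defence family with the most separated members. Of 220 such genes on the array 78 passed the filter, which took the mean over all 12 arrays. A member could therefore pass only through high mutant control arrays, which raises the share with the mutant higher. How many did so was not counted. Of the 78, 35 were separated with the mutant higher (44.9%, against 11.8% of all genes) and 2 with it lower, at a median of 0.61. Without wild-type control replicate 1 the median was 0.43 and 38 were separated higher, where 16.2% of all genes were. The 2 members with the largest difference were clec-207 and clec-197. The first, clec-207, read 10.2, 546 and 342 in wild type and 1847, 1141 and 1753 in the mutant. Without the mutant control arrays its mean log2 signal lay below the filter level, so it was tested only because of them. Every mutant array was higher than every wild-type array, but the difference of 3.64 was 1.84 without the low first array, and for clec-197 it went from 3.51 to 1.34.

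The lectin gene with the smallest p, clec-221, read 109, 284 and 313 in wild type and 1159, 1016 and 1359 in the mutant, a 5.5-fold higher signal (2.46, interval 1.54 to 3.38, limma adjusted p = 0.19). Its mutant arrays were at least 3 times the brightest wild-type array, and the difference without wild-type control replicate 1 was 1.97. On spg-7 RNAi the pattern was largely missing: the family's median was 0.01, 11 of 78 were separated higher (15.7% of all genes were) and clec-221 differed by 0.26 at signals of 183, 209 and 121 in wild type and 267, 133 and 222 in the mutant. Of the 78 lectins, 8 were separated higher on both treatments, as were 6.24% of all genes.

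Infection response, lysozyme and antimicrobial peptide genes were mixed, with 7 of 48 separated higher (14.6%, against 11.8% of all genes) and 1 lower (2.08%, against 5.79%). Their median was 0.11, and 48 of the 76 such genes on the array passed the filter. The fungus-induced peptide family member fipr-17 read 49.6, 493 and 414 in wild type and 1667, 1346 and 1606 in the mutant (2.83, and 1.76 without wild-type control replicate 1). The infection response gene irg-2 was dim, at 12, 75.9 and 70.2 in wild type and 259.7, 179 and 269.9 in the mutant. All mutant arrays were higher, by 2.54 or, since the wild type lay at or below the filter level of 76.0, by 1.75 on the scale of log2(signal + 32). Without wild-type control replicate 1 the difference was 1.67. On spg-7 RNAi irg-2 was separated the other way, at 899, 902 and 627 in wild type and 475, 587 and 344 in the mutant. The difference between its genotype differences was -3.34 with a limma adjusted p of 0.57. Chosen after their values were seen, irg-1 (1.61), the antibacterial peptide gene abf-1 (2.05) and the lysozyme gene lys-7 (1.28) were also separated higher in the mutant on control RNAi, and abf-1 was separated lower on spg-7 RNAi (-0.68).

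Families of enzymes that modify foreign and endogenous small molecules differed from each other in their counts. Of 45 UDP-glucuronosyltransferases, which attach sugars to lipophilic molecules, 8 were separated with the mutant higher (17.8%, against 11.8% of all genes) and 0 lower, at a median of 0.14. On spg-7 RNAi 7 of the 45 were separated higher and 11 lower, at a median of -0.31, where 15.7% and 7.29% of all genes were. The gene ugt-43 had the largest difference, 2.50, with 36.3, 320.1 and 283 in wild type and 803, 647 and 1148 in the mutant. It was also separated on spg-7 RNAi, at 2.40, and stood at 1.48 without wild-type control replicate 1. Of 41 cyp genes, which encode cytochrome monooxygenases, 4 were separated higher (9.76%) and 1 lower, and of 28 glutathione S-transferases 2 (7.14%) and 0, both shares below that of all genes. The kappa-class transferase gstk-2, with a probe set marked s, was the clearer of those 2, at 86.4, 88.9 and 93.7 in wild type and 236, 275 and 176 in the mutant (1.33; 0.69 on spg-7 RNAi, again separated). The mitochondrial superoxide dismutase gene sod-3 went the other way, at 152, 176 and 158 in wild type and 84.7, 98.1 and 115 in the mutant, a difference of -0.72 (adjusted p = 0.62). On spg-7 RNAi its arrays were likewise separated, by -1.90.

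Genes of lipid handling went in both directions. Of 14 fatty acid binding genes 12 had a lower mean in the mutant, at a median of -0.25 (-0.07 without wild-type control replicate 1), with 0 separated lower. The intracellular lipid-binding proteins lbp-7 and lbp-5 were the exceptions, separated higher on both RNAi treatments. For lbp-7 the arrays read 1147, 1731 and 1222 in wild type and 2554, 2935 and 1937 in the mutant, a difference of 0.86 (unadjusted p = 0.0027, adjusted p = 0.43 by limma), and for lbp-5 it was 0.67. Of 55 fatty acid activation and oxidation genes 8 were separated higher (14.5%) and 1 lower (1.82%), beside 11.8% and 5.79% of all genes. Among the 8 was acs-10, an acyl-CoA synthetase, at 1.61 and 0.76 without wild-type control replicate 1. Of 4 measured lysosomal lipase genes, whose enzymes release fatty acids from stored lipid, 3 had a higher mean and 0 were separated, at a median of 0.76 (0.44 without wild-type control replicate 1). Within that list lipl-1 read 187, 508 and 265 in wild type and 646, 1889.8 and 315 in the mutant, a difference of 1.31 (limma adjusted p = 0.47) that was 0.62 without mutant control replicate 2. For lipl-2 the difference was 1.34, or 0.77 without that array. Among 26 autophagy and lysosome genes the regulator hlh-30, the worm TFEB, was 1 of 2 separated higher (7.69%, against 11.8% of all genes), at 0.81. A second hlh-30 probe set that passed the filter differed by 0.08.

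**Figure D2:**
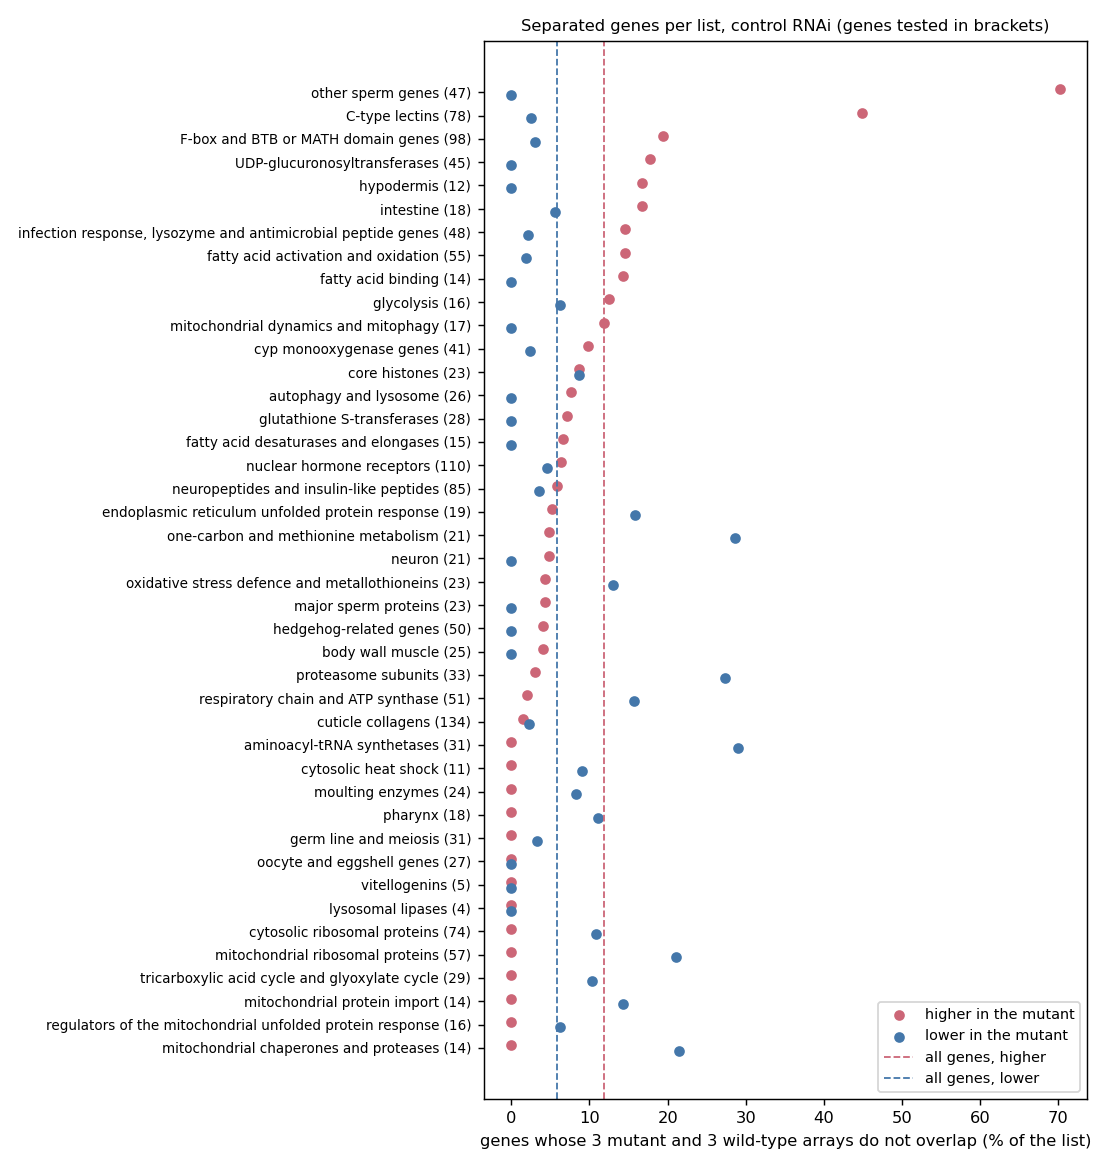
Share of each gene list (y axis, number of genes tested in brackets) whose 3 mutant and 3 wild-type control RNAi arrays do not overlap, in percent of the list. Red points are genes higher in the mutant and blue points genes lower, and dashed lines mark the shares over all 10385 genes, 11.8% and 5.79%. Sperm genes at 70.2% and C-type lectins at 44.9% lie farthest to the right.

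Sperm genes other than the major sperm proteins, named spe, ssp, ssq, nspd and gsp, were the list with the largest share of separated members. Of 47 measured, 33 were separated with the mutant higher (70.2%, against 11.8% of all genes) and 0 lower, and the median difference was 1.38. At an unadjusted p under 0.05 by limma 22 were higher, as were 8.47% of all genes. On wild-type control replicate 1 the list's median log2 signal was 7.81, against 9.69 and 9.28 on the other wild-type arrays. Without that array the median difference was 0.51 and 33 were again separated higher, where 16.2% of all genes were. At an unadjusted p under 0.05 by limma 5 were then higher, as were 3.98% of all genes. In the mutant the list's median log2 signal was 9.99, 9.82 and 10.31, above every wild-type array.

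The separate spg-7 RNAi arrays gave a similar value, a median of 1.30 with 32 of 47 separated higher, and 26 genes were separated higher on both treatments (6.24% of all genes were). Wild-type replicate 1 was again the lowest there, at a list median log2 signal of 7.90. The other wild-type arrays were at 9.08 and 8.78 and the mutant arrays at 9.03 to 9.77. Oocyte marker sums also scattered there, at 3536, 28537 and 56435 in wild type and 3304 to 26631 in the mutant. The difference without wild-type spg-7 RNAi replicate 1 was not calculated. Chosen after its values were seen, spe-47, a sperm gene, read 114, 255 and 217 in wild type and 370.5, 523 and 663 in the mutant on control RNAi (1.45, unadjusted p = 0.0021, adjusted p = 0.43 by limma) and 81.8, 159 and 107 against 310.3, 267 and 328 on spg-7 RNAi (1.43). The 2 members with the largest difference were spe-8 at 3.09, with 1 wild-type array near the floor, and nspd-9 at 2.35; without wild-type control replicate 1 they were at 0.93 and 1.16. The histone H3 variant gene his-70 had a similar profile, at 231, 1128 and 1006 in wild type and 1907, 1906 and 1593 in the mutant, and at 2.19 on spg-7 RNAi.

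The major sperm proteins, the cytoskeletal proteins of crawling sperm, did not show the same separation on control RNAi. Their median difference of 1.03 became 0.04 without wild-type control replicate 1, and 1 of 23 was separated, msp-142 at 1172, 11839.6 and 11319.8 in wild type and 16055, 12435 and 12407 in the mutant. On spg-7 RNAi 21 of 23 were separated higher (15.7% of all genes were), at a median of 1.01. Many of these genes are near-identical copies that share probe sets, so they do not count as independent values.

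Yolk and oocyte transcripts varied widely between the wild-type replicates. The vitellogenin gene vit-2, an egg yolk protein of the adult intestine, read 4.96, 7794 and 5402 in wild type and 3937, 4923 and 7495 in the mutant. Only the first wild-type array was low, and without it the difference of 3.15 turned to -0.30, as the median of the 5 vitellogenins turned from 2.11 to -0.34. Of 27 oocyte and eggshell genes 0 were separated in either direction, and their median went from 0.44 to -0.41 without that array. The adult cuticle collagen col-19 read 29.9, 6653 and 4190.2 in wild type and 7318, 6817 and 8449 in the mutant, a difference of 2.99 that was 0.51 without it.

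**Figure D3:**
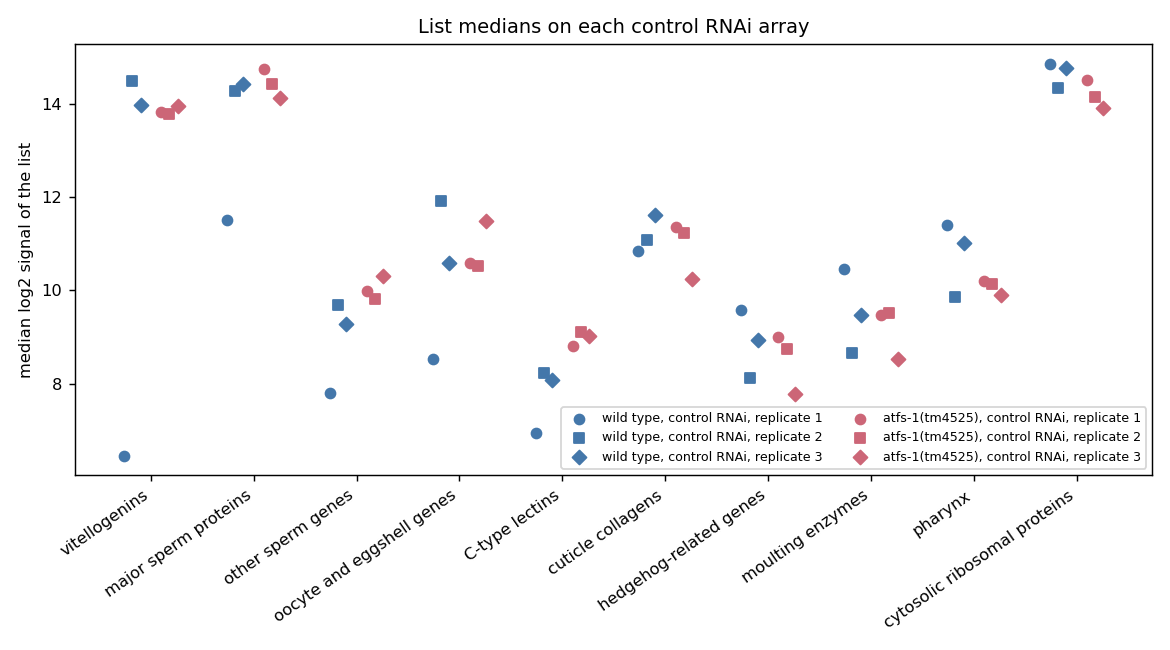
Median log2 signal of 10 gene lists (x axis) on each of the 6 control RNAi arrays, blue for wild type and red for the mutant, with a marker shape for each replicate number. Wild-type replicate 1 lies lowest for vitellogenins (6.46), major sperm proteins (11.52) and other sperm genes (7.81) and highest for moulting enzymes (10.46).

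Of the 6 control RNAi arrays, wild-type replicate 1 had the highest median signal of the moulting, hedgehog-related and pharynx lists. Cuticle collagens had theirs on wild-type control replicate 3. The 24 genes of moulting enzymes and matrix had a median of -0.89 on control RNAi, or -0.31 without wild-type control replicate 1. On spg-7 RNAi the median was 0.97 and 11 were separated higher in the mutant, where 15.7% of all genes were. On control RNAi 2 were separated lower (8.33%, against 5.79% of all genes). Among them was nas-37, an astacin metalloprotease used to shed the old cuticle. It read 1044, 301 and 507 in wild type and 225, 214 and 231 in the mutant. The hedgehog-related genes wrt-1 and wrt-10, expressed in the skin, differed by -1.94 and -1.80, with overlapping arrays and the highest value on wild-type control replicate 1; without it they stood at -0.97 and -0.80, and without wild-type control replicate 2 wrt-1 was at -3.02. The 134 cuticle collagen genes were a list that also held other dpy, lon and bli names. Of these, 2 were separated higher and 3 lower on control RNAi, or 1.49% and 2.24% against 11.8% and 5.79% of all genes. Their median was -0.28, or -0.24 without wild-type control replicate 1 and 0.03 without mutant control replicate 3. On spg-7 RNAi 52 were separated higher and 2 lower at a median of 0.71, where 15.7% and 7.29% of all genes were. Pharynx genes had a median of -0.55, which was -0.27 without wild-type control replicate 1 and 0.43 on spg-7 RNAi, and their marker sum was 13981, 4559 and 9121 in wild type and 5366, 4421 and 3572 in the mutant. Whether the genotypes or cultures were collected at the same point of the last larval stage was not tested.

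The small heat shock genes hsp-16.41 and hsp-16.2 had large but uncertain differences. For hsp-16.41 the arrays read 485, 236 and 1080.4 in wild type and 128, 22 and 449 in the mutant. The arrays overlapped, with a difference of -2.20 and an interval of -4.66 to 0.25, and hsp-16.2 differed by -1.72 (limma adjusted p = 0.53). Without mutant control replicate 2 the differences were -1.06 and -1.05, and without mutant control replicate 3 they were -3.23 and -2.41. Of the 19 genes of the endoplasmic reticulum unfolded protein response 1 was separated higher (5.26%) and 3 lower (15.8%), at a median of -0.24. Of all genes 11.8% and 5.79% were.

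Outside the lists, the genes with the smallest p-values were chosen after their values were seen. On the higher side Y58A7A.5 came first, at 185, 240.4 and 299.6 in wild type and 671, 942 and 809 in the mutant. Its lowest mutant array was more than 2 times the highest wild-type array, a 3.37-fold difference (1.75, interval 1.20 to 2.31, unadjusted p = 1.9e-05 and adjusted p = 0.19 by limma) that stayed between 1.57 and 1.92 without any single control array. On spg-7 RNAi the gene was bright in both genotypes, at 1766, 1929 and 1247 in wild type and 1269, 1329.6 and 1169.9 in the mutant, and the difference between its genotype differences was -2.12 (adjusted p = 0.21).

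The glucuronosyltransferase gene ugt-29 read 129, 218 and 191 in wild type and 492, 513 and 703 in the mutant (1.68; probe set marked s), and D2096.10 read 82.1, 133 and 112 and 363, 292 and 349.5 (1.64). The poly(ADP-ribose) glycohydrolase gene parg-2 read 28.5, 64 and 47 and 179, 176 and 307, a difference of 1.67 on the scale of log2(signal + 32). Without the mutant control arrays the mean log2 signal of parg-2 lay below the filter level, so it was tested only because of them. All 3 genes had a limma adjusted p of 0.19 and non-overlapping arrays. On spg-7 RNAi ugt-29 and D2096.10 were again separated higher, by smaller differences of 0.56 and 0.49, and parg-2 overlapped (0.15).

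Some genes had a similar difference on both RNAi treatments. F19H6.6 read 143, 408 and 251 in wild type and 1078, 841 and 805 in the mutant on control RNAi (1.88, adjusted p = 0.37) and 80.3, 109 and 112 against 467, 743 and 601 on spg-7 RNAi, where the difference of 2.58 passed (limma adjusted p = 0.021). It was the only gene called higher in the mutant on spg-7 RNAi, 1 of 10385 (0.00963%). That count ran from 0 to 531 when single arrays were left out, and was 531 without wild-type control replicate 1, an array that is not one of the spg-7 RNAi arrays compared. The gene pph-7 differed by 1.57 on control RNAi and by 1.74 on spg-7 RNAi, F46A9.1 by 1.72 and 1.30, and F49C12.7 by 1.72 and 1.62, all separated on both.

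On the lower side the smallest p belonged to cku-70, the Ku70 subunit that binds broken DNA ends for end joining. It read 356, 387 and 344 in wild type and 119.8, 162 and 213 in the mutant. The wild-type arrays were tight and all mutant arrays lay below them, a 2.25-fold difference (-1.17, interval -1.75 to -0.59, unadjusted p = 8.9e-04 and adjusted p = 0.37 by limma). On spg-7 RNAi the arrays read 558, 763 and 696 and 276, 325 and 347, again without overlap and with a difference of -1.08.

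The gene R12E2.11 followed in that order, at -0.83. Picked out further down it, among genes of other kinds, were spat-3, a RING protein related to Polycomb group subunits (-1.04), utx-1, a histone demethylase (-1.17, or -0.87 with the offset, its mutant arrays being dim), and sur-2, a Mediator subunit (-0.84). These 3 were chosen after their values were seen, and no test was made of them together. A second probe set of sur-2 differed by -0.25 and one of utx-1 by -0.50. F23F12.12, with a probe set that can bind several transcripts, read 1487, 855 and 1453 in wild type and 551, 649.8 and 639.6 in the mutant. The difference of -1.0 stood beside one of -2.14 on spg-7 RNAi, which passed (limma adjusted p = 0.021), making it 1 of 9 genes called lower (0.0867%; 0 to 56 without single arrays, with 56 again without wild-type control replicate 1). F59C12.4 was separated in opposite directions, lower in the mutant with control RNAi (-1.29) but higher with spg-7 RNAi (0.63), with an adjusted p of 0.57 for the difference between them.

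**Figure D4:**
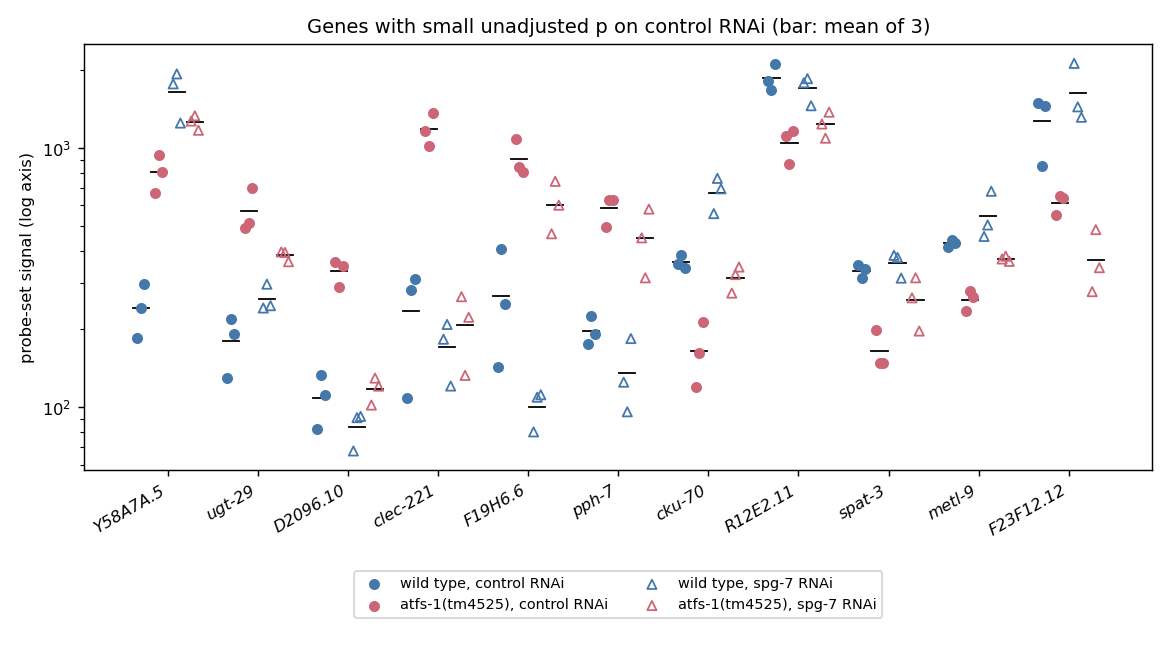
Probe-set signal (log axis) of 6 genes with a small unadjusted p and a higher signal in the mutant and 5 with a lower one, on every array, with bars at the mean of 3. Filled points are control RNAi and open triangles spg-7 RNAi; the genotypes do not overlap on either treatment for any of these genes except Y58A7A.5, clec-221 and spat-3, which overlap on spg-7 RNAi.

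The spg-7 RNAi arrays share no array with the control RNAi comparison, though both used the same estimate of the spread. Of the 1228 genes separated higher on control RNAi, 648 were also separated higher on spg-7 RNAi, 554 overlapped there and 26 were separated lower; 15.7% of all genes were separated higher on spg-7 RNAi. Of the 601 separated lower, 89 were again lower, 497 overlapped and 15 were higher, beside 7.29% of all genes separated lower. Of the 880 genes with an unadjusted p under 0.05 on the higher side 790 also had a higher mean on spg-7 RNAi, and of the 233 on the lower side 125 also had a lower one. The shares of all genes with a higher or a lower mean on spg-7 RNAi were not counted, so those counts have no background to be read against. By the different measure of an unadjusted p under 0.05 (limma), 11.2% of all genes were higher and 4.24% lower on spg-7 RNAi. A test of the difference between the genotype differences called 0 of 10385 genes by limma, with a smallest adjusted p of 0.21 and 647 genes at an unadjusted p under 0.05. No single gene was therefore shown to differ in its genotype difference between the treatments.

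**Figure D5:**
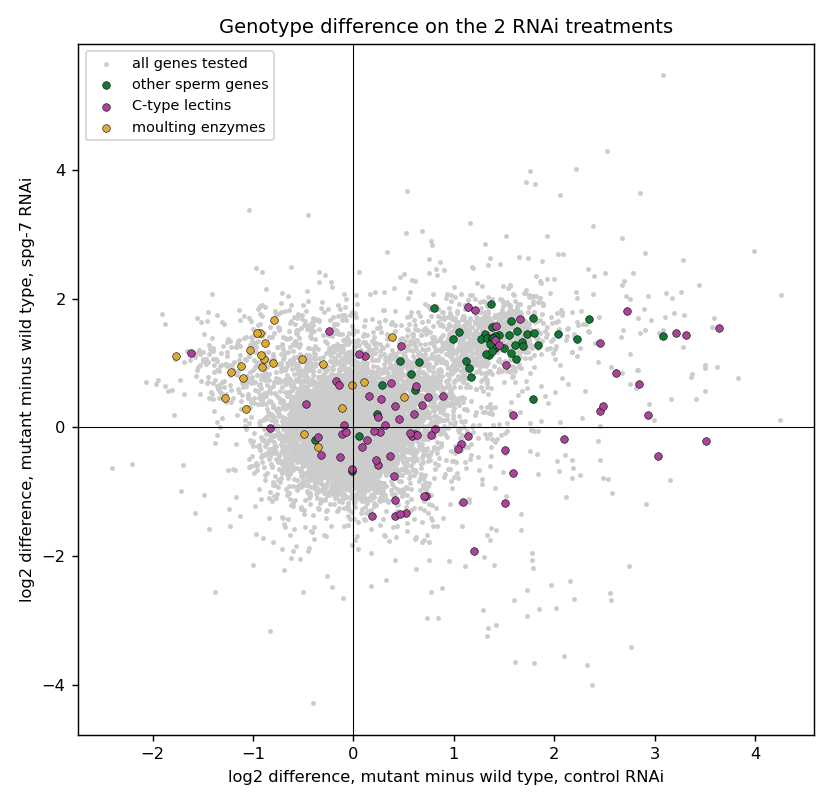
Log2 difference of each of 10385 genes, mutant minus wild type, on control RNAi (x axis) and on spg-7 RNAi (y axis), with sperm genes, C-type lectins and moulting enzymes in colour. Sperm genes lie at medians of 1.38 and 1.30, lectins at 0.61 and 0.01, and moulting enzymes at -0.89 and 0.97.

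Of the 10 genes called between genotypes on spg-7 RNAi, 7 had overlapping arrays on control RNAi. Among these are the cytochrome P450 genes cyp-14A1 and cyp-14A4 and the nuclear hormone receptor gene nhr-61. On control RNAi cyp-14A4 was dim in both genotypes, at 42.6, 19.2 and 27.9 in wild type and 25.2, 30.5 and 13 in the mutant, all below the filter level of 76.0, so no difference is read from it. For cyp-14A1 the arrays read 132, 73.1 and 108 and 74.1, 61.9 and 80.3 (-0.50, or -0.31 without wild-type control replicate 1; adjusted p = 0.64), and for nhr-61 142, 116 and 129 and 137, 155 and 144 (0.18, adjusted p = 0.92). Both overlapped between genotypes. The transporter gene slc-17.3 was separated higher in the mutant on control RNAi, at 52.3, 56.8 and 56.2 in wild type and 86.3, 103 and 94.7 in the mutant, values that lie near the filter level, and lower on spg-7 RNAi, at 1291, 646 and 331 and 125, 91 and 118.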

How the data were processed

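Biotin-labelled cRNA from total RNA of whole worms had been hybridised to Affymetrix arrays. Values are signal intensities on a linear scale, 1 per probe set, deposited by the authors and made with MAS5 per the submitters' processing notes; its version and settings are not given in the sources used here. Leaving out 2% of probe sets at either end, each array averaged 500.1 to 500.2. The number of arrays limits the precision. Detection calls were not used here.

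The files held 22625 probe sets, 77 of them controls. Of the other 22548, a single gene name was given to 20766, more than 1 to 887 and no name to 895, and names were updated by gene ID for 20701 and by symbol alone for 65. Values under 1 (0.508%) were set to 1 before log2, with no further scaling. The dimmest 40% of probe sets (mean signal under 76.0) were left out, and each gene was read from its brightest remaining probe set, of type s for 3250 of the 10385 genes and of type x for 463.

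Group means were estimated in a linear model of all 12 arrays (lmFit, then eBayes with a variance trend; limma 3.58.1, R 4.3.3, data.table, version 1.17.8). Adjusted p-values are limma's, with Benjamini-Hochberg adjustment over all genes, and a gene was called under 0.05. For control probe sets, an exact two-sided permutation test compared the genotypes. The fit was tested on simulated data. Plots were drawn in Python 3.11.15 with matplotlib 3.10.9.

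The comparison and the 42 gene lists were chosen with earlier results of these data known. Named genes are atfs-1, spg-7, hsp-6 and hsp-60, called genes with arrays that do not overlap (0 here), up to 2 members of each list by size of difference, and genes chosen after their values were seen, which include those called on spg-7 RNAi. Alternatives were 3 other scalings, an offset of 32 before log2, no filter or one at 60%, the mean over a gene's probe sets, array weights by both limma methods (the gene-by-gene one added after seeing the data), a fit of the 6 control RNAi arrays, a fit without the trend, the replicate block, stricter thresholds and leaving out single arrays. Lists were described by counts and medians, without a test.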

Additional observations from a re-analysis of the deposited data

How the results depend on the processing

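The count of 0 genes called in each direction on control RNAi by limma held under every alternative except one. Array weights by limma's default method, which stopped before it converged, called 353 genes higher and 166 lower. The gene-by-gene weights of limma called 0 and 0, with a smallest adjusted p of 0.054. The default weights were 0.30, 0.41 and 3.76 for the wild-type control arrays and 1.73, 2.57 and 0.76 for the mutant ones, and the gene-by-gene weights 0.32, 0.49 and 1.71 and 1.87, 2.36 and 0.78. With the replicate block the counts were 0 and 0 (unadjusted p under 0.05 by limma for 974 higher and 270 lower). The labels do not say what the replicate numbers pair. Deviations of same-numbered mutant and wild-type arrays correlated at 0.121, -0.462 and -0.129 on control RNAi. On spg-7 RNAi they correlated at 0.224, -0.091 and 0.663. Pairing between the RNAi treatments was not tested. A fit to the 6 control RNAi arrays alone gave a smallest adjusted p of 0.61. Without single arrays the counts on control RNAi were 0 to 0 in each direction. On spg-7 RNAi they were 0 to 531 higher and 0 to 56 lower, both maxima without wild-type control replicate 1, and for the difference between the genotype differences 0 to 1. At an unadjusted p under 0.05, scaling to the hybridisation controls gave 1676 genes higher and 10 lower, quantile normalisation 775 and 365, and median centring 718 and 384. Of 95 genes examined, 10 changed sign under some alternative, each with an interval that spanned 0 or a scaling that moved all genes. For atfs-1 the value was -0.018 under both quantile normalisation and median centring, and -0.052 to 0.17 without single control arrays. For hsp-6 it was -0.0079 with array weights and -0.047 to 0.46 without single arrays. Leaving out single arrays gave -0.30 to 5.0 for vit-2, -0.34 to 4.07 for vit-5 and -0.081 to 2.81 for perm-2, each lowest without wild-type control replicate 1. Scaling to the hybridisation controls turned tin-10 (0.028), tin-13 (0.068), cyp-14A4 (0.052), pbs-6 (0.062) and rpn-10 (0.051), beside a shift of 0.45 in the median of all genes. The cause of these changes was not tested. With 3 arrays a group a median gene had to differ by more than about 1.73-fold for its own 95% interval to leave out 0, before any adjustment, and dim genes lie close to the background of the arrays.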

Other observations

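Insulin-like and neuropeptide genes, 85 of 110 on the array, had 5 members separated with the mutant higher (5.88%) and 3 with it lower (3.53%). Both shares were below the 11.8% and 5.79% of all genes, and the median difference was 0.00. The member with the largest difference was ins-31, an insulin-like peptide gene, at 4.24, or 2.02 without wild-type control replicate 1. Without that array 15 of the 85 were separated higher (16.2% of all genes were) and the median was 0.27. Of 254 nuclear hormone receptor genes on the array 110 were tested. Of these 110, 7 were separated higher (6.36%) and 5 lower (4.55%), both below the 11.8% and 5.79% of all genes. Of 413 F-box, BTB and MATH domain genes on the array, many of them substrate adaptors for protein degradation, 98 passed the filter. Of these 98, 19 were separated higher (19.4%) and 3 lower (3.06%), beside the same shares of all genes. As with the lectins, a member could pass only through high mutant control arrays, which raises the share with the mutant higher. How many did so was not counted. The F-box gene fbxa-60, chosen after its values were seen and read through a probe set that can bind several transcripts, differed by 1.75 on control RNAi (limma adjusted p = 0.37) and by 0.07 on spg-7 RNAi. The troponin I gene tni-3 was the 1 separated member among 25 genes of body wall muscle (4%, against 11.8% of all genes). It was higher in the mutant by 0.70 on control RNAi and by 1.01 on spg-7 RNAi. Its second probe set differed by 1.04 on control RNAi, while the median of the muscle list was -0.15. No gene in these lists passed the adjusted test on control RNAi.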
